A study of Mus musculus with 32 samples.

Results

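The NR4A nuclear receptors Nr4a1, Nr4a2 and Nr4a3 were examined in retinas of mice flown on the Rodent Research-1 mission and in retinas of ground control mice. The members were taken by gene name from the expression table and are 3 of its 26629 entries. They were selected on their measured FPKM in spaceflight against ground control, as earlier results of these data gave it, so that difference is described here without a test. RNA was sequenced from 9 spaceflight and 7 ground control retinas. RRBS, a bisulfite method that reads DNA methylation in the part of the genome around CCGG sites, was run on 8 retinas of each group. By the mouse numbers in the study's table of libraries, 14 mice had both. The titles of the ground control RNA samples give other numbers, so this count is uncertain. Every mouse was a female C57 BL/6J aged 21 weeks, and both groups lived in the same type of animal enclosure module on the same food bar diet. Spaceflight mice spent 37 days in orbit and were killed and frozen there, ground control mice were killed and frozen at the matching time in a simulator of station conditions, and the eyes of both groups were dissected from thawed carcasses. Each retina is thus a sample of tissue at the end of housing, with no earlier or later time point, and each library came from 1 mouse.

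The NR4A family comprises orphan nuclear receptors that act as transcription factors without a known natural ligand. Their genes belong to the immediate early genes, which are transcribed within minutes of a stimulus such as neuronal firing, calcium entry or a growth factor, without new protein synthesis. Nr4a1 (also called Nur77) and Nr4a2 (Nurr1) can pair with a retinoid X receptor (RXR), Nr4a2 is required for midbrain dopamine neurons, and Nr4a3 (NOR1) acts without an RXR partner. Signals that raise cyclic AMP reach these genes through CREB, which binds the cyclic AMP response element (CRE), and through its CRTC coactivators. Other signals act through MEF2 and serum response factor.

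The promoters of the 3 genes are shown because they share sequence that the choice of members did not use. The RefSeq window of 300 bases, from 250 bases before the transcription start to 50 bases after it, was available for 3 of the 3 genes on build GRCm38.p6. Capitals mark TGACG, the core of the CRE, or its reverse complement CGTCA.
Nr4a1, chr15:101266596-101266895, plus strand: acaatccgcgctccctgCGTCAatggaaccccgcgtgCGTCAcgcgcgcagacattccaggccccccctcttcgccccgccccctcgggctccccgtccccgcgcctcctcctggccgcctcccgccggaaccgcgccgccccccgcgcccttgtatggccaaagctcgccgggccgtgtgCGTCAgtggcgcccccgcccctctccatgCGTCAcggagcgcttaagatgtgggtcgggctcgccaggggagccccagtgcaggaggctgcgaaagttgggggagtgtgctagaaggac
Nr4a2, chr2:57123954-57124253, minus strand: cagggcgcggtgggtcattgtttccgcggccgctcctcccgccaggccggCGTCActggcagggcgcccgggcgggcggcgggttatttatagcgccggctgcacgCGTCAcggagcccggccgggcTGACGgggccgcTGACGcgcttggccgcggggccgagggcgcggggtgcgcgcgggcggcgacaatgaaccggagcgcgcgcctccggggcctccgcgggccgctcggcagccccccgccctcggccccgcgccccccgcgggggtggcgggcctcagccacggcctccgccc
Nr4a3, chr4:48045055-48045354, plus strand: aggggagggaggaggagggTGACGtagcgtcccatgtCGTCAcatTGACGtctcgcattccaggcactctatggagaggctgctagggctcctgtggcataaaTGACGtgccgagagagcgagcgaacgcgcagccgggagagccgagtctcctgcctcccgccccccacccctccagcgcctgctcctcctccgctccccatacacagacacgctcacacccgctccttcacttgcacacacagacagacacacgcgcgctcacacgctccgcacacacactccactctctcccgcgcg

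Each of the 3 windows held 4 CRE cores, counted on both strands. Of the 32851 RefSeq promoter windows of the same length, 20.8% held at least 1 core, 5.01% at least 2 and 0.231% (76 windows) at least 4. Counted from the start as 0, with negative numbers upstream, the 4 cores of Nr4a1 began at -233, -213, -69 and -40, all written as CGTCA on the gene's strand. Those of Nr4a2 began at -200, -144, -123 and -111, and those of Nr4a3 at -231, -213, -205 and -147. The full palindrome TGACGTCA, which would count as 2 overlapping cores, was in none of the 3 windows and in 1.79% of all windows. NBRE, the element AAAGGTCA to which NR4A proteins bind as monomers, was also in none of the 3 windows and in 1.51% of all, and the CArG box, the serum response factor element, in none of the 3 and in 1.63% of all. The windows were rich in G and C, at 72.3% with 35 CG pairs for Nr4a1, 81.7% with 52 for Nr4a2 and 64.7% with 26 for Nr4a3. The core TGACG itself holds a CG. The shares of all windows were not matched for G and C or for CG pairs, so the share among windows alike in these is not known. A match of letters in such a window is a description of the sequence and not evidence of binding.

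Several features of the libraries touch the values that follow. All 8 rod markers, led by rhodopsin, were above 1 FPKM (a fragment level adjusted for the length of the transcript and the size of the library) in every library, and their summed level was 12964 to 28230 FPKM in spaceflight and 17370 to 27371 FPKM in ground control. The lists of cone, bipolar, amacrine and retinal ganglion markers were also measured in full. RNA of neighbouring tissue differed between single libraries: ground control retina M31 had the highest summed lens level of all (6 crystallin and other lens genes, 23487 FPKM, against a group median of 172 FPKM) and the highest Müller glia, microglia, pericyte, fibroblast and pigment epithelium sums. Spaceflight retina M22 had the highest lens sum of its group (15943 FPKM, against a median of 35.9 FPKM) and the highest suprabasal epidermis sum (905 FPKM), and M21 the highest corneal epithelium sum (1001 FPKM). No marker gene that could be tested between groups was called, but no lens or red blood cell marker could be tested, and only 1 of 6 in each of the fibroblast, corneal epithelium and neutrophil lists. The RNA library of M21 carries a ground control condition in 1 label and a flight source in another; here it belongs to spaceflight, and values under the other assignment are given where they matter. In whole retina, fewer cells of a type and less RNA per cell cannot be told apart.

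Nr4a1 was the most abundant of the 3 genes and lower in spaceflight. Its level ranged from 9.17 FPKM through a median of 10.8 FPKM to 17.7 FPKM in spaceflight, and from 14.2 FPKM through 19.0 FPKM to 45.3 FPKM in ground control. Of the 9 spaceflight retinas, 8 lay below the lowest ground control retina, and the exception, at 17.7 FPKM, was M22. The group means were 11.4 ± 2.69 FPKM (SD, n = 9) and 22.5 ± 10.9 FPKM (SD, n = 7), a log2 difference of -0.90 ± 0.239 (SE) on the log2(FPKM + 0.1) scale used for all differences here. Retina M40, at 45.3 FPKM, stood 2.38-fold above the ground control median. The difference was -0.71 without M40, and leaving out any other single library gave values down to -0.99.

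Nr4a3 had the largest difference of the family. Spaceflight retinas ranged from 1.87 FPKM through a median of 2.89 FPKM to 4.17 FPKM, and ground control retinas from 2.87 FPKM through 7.16 FPKM to 8.03 FPKM. Of the 7 ground control retinas, 6 lay above every spaceflight retina. The exception was M36 at 2.87 FPKM, which lay within the spaceflight range although its Nr4a1 (19.0 FPKM) was at the median of its group. Means were 2.85 ± 0.668 FPKM (SD, n = 9) in spaceflight and 6.23 ± 1.98 FPKM (SD, n = 7) in ground control, a log2 difference of -1.06 ± 0.232 (SE) that ran from -1.23 to -0.99 when single libraries were left out.

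Nr4a2 differed least, and its groups overlapped. Its range was 4.67 to 6.52 FPKM with a median of 6.05 FPKM in spaceflight and 4.26 to 8.49 FPKM with a median of 7.08 FPKM in ground control. The lowest retina of all 16 was a ground control, M31, while 4 other ground control retinas lay above every spaceflight retina. Means of 5.76 ± 0.763 FPKM (SD, n = 9) and 6.84 ± 1.43 FPKM (SD, n = 7) gave a log2 difference of -0.22 ± 0.141 (SE). Without M31 and M22 together, an alternative chosen after the marker sums were seen, the log2 differences were -1.05 for Nr4a1, -0.34 for Nr4a2 and -1.14 for Nr4a3. With M21 placed among the ground controls they were -0.73, -0.24 and -0.87.

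**Figure D1:**
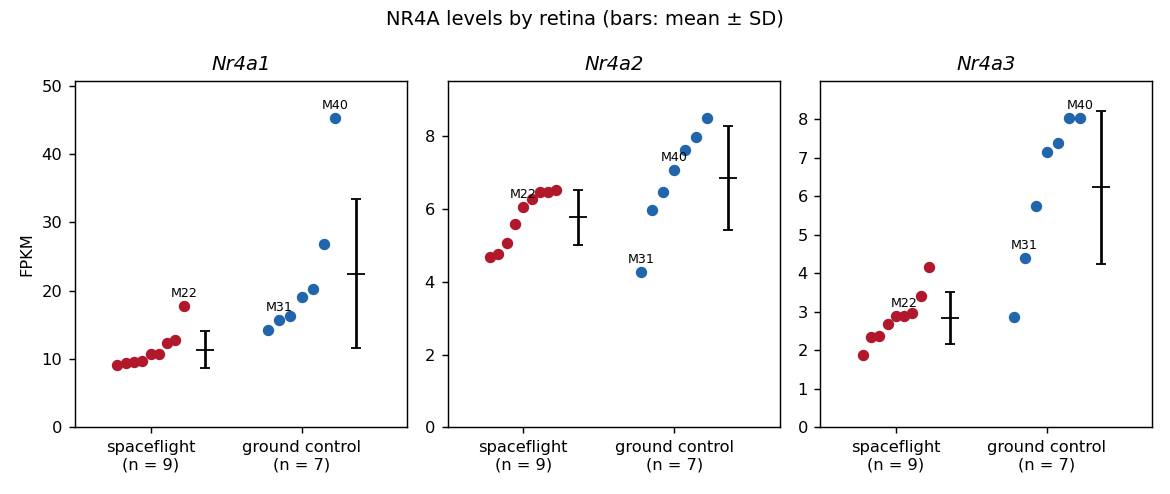
Levels of Nr4a1, Nr4a2 and Nr4a3 in FPKM (vertical axes, each from 0) in 9 spaceflight (red) and 7 ground control (blue) retinas, 1 point per retina in order of level, with the mean ± SD as a black bar. For Nr4a1, 8 of 9 spaceflight points lie below the lowest ground control point and M40 stands at 45.3 FPKM; for Nr4a3, 6 of 7 ground control points lie above the highest spaceflight point; for Nr4a2 the groups overlap.

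Complete separation with spaceflight as the lower group was rare in the table as a whole, and the other direction was not counted. Of 12460 genes tested, which are those that reached 1 FPKM in each of the 16 libraries, 5 (0.0401%) had every spaceflight library below every ground control library, and no NR4A gene was among them. By size of the log2 difference, 10 of the 12460 genes were lower than Nr4a3, 15 were lower than Nr4a1 and 1318 were lower than Nr4a2. Of the 34 nuclear receptor genes that could be tested, Nr4a3 was the lowest, Nr4a1 the next and Nr4a2 the ninth. Because the choice of members used this contrast, these ranks describe the choice.

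The levels of the 3 genes were next compared with each other within each retina, which FPKM allows because it is scaled to gene length. The same levels entered the contrast that chose the genes, so their order is given as a description. Nr4a1 exceeded Nr4a2 in 9 of 9 spaceflight and 7 of 7 ground control retinas, by a log2 difference of 0.95 ± 0.315 (SD, n = 9) and 1.63 ± 0.631 (SD, n = 7). It also exceeded Nr4a3 in every retina, by 1.96 ± 0.371 in spaceflight and 1.80 ± 0.635 in ground control (log2, SD). Nr4a2 exceeded Nr4a3 in 9 of 9 spaceflight retinas, by 1.01 ± 0.343 (log2, SD). In ground control Nr4a2 was the higher in 3 of 7 retinas, with a mean difference of 0.18 ± 0.457 (log2, SD), which is smaller than its spread. The difference between groups in this gap was not tested.

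**Figure D2:**
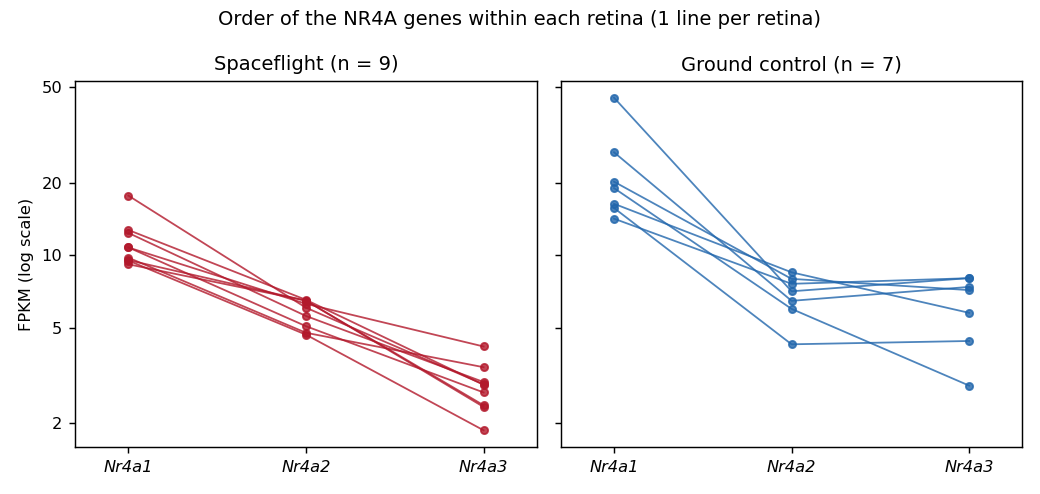
Levels of the 3 NR4A genes in FPKM (vertical log axis) within each spaceflight (left, red) and ground control (right, blue) retina, with 1 line per retina. Every line falls from Nr4a1 to Nr4a2, all 9 spaceflight lines fall again to Nr4a3, and the 7 ground control lines fall in 3 retinas and rise in 4.

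Among 49 nuclear receptor genes ranked by mean FPKM, Nr4a1 was number 10 in ground control and number 17 in spaceflight. Nr4a2 was number 23 in both groups, and Nr4a3 was number 24 in ground control and number 32 in spaceflight. On the same FPKM scale, Nr4a1 lay above 73.1% of the 12460 tested genes in ground control and above 50.9% in spaceflight, and Nr4a3 above 28.8% and 7.81%. The coefficient of variation of FPKM in ground control was 48.2% for Nr4a1, 20.9% for Nr4a2 and 31.8% for Nr4a3, and in spaceflight 23.7%, 13.2% and 23.5%. Both Nr4a1 values include 1 retina far above the others. These were M40 in ground control (45.3 FPKM, the next being 26.8 FPKM) and M22 in spaceflight (17.7 FPKM, the next being 12.7 FPKM). The order of the members by spread without these retinas was not computed.

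Variation within a group gives a view of the family that is independent of the difference between groups. Across retinas of 1 group the members followed each other weakly, with Pearson's r of 0.24 (Nr4a1 and Nr4a2), 0.29 (Nr4a1 and Nr4a3) and 0.19 (Nr4a2 and Nr4a3) in 9 spaceflight retinas and of 0.11, 0.36 and 0.54 in 7 ground control retinas. None of these 6 pairs passed a permutation test after adjustment over the 48 p-values of 24 correlations (lowest adjusted p = 0.610 for either coefficient). Spearman's rho for the same pairs lay between -0.017 and 0.53.

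Of the immediate early genes Fos, Egr1 and Junb, Nr4a1 was closest to Fos, which encodes a subunit of the AP-1 transcription factor. Fos ranged from 4.82 FPKM through 6.72 FPKM to 17.3 FPKM in spaceflight and from 7.62 FPKM through 10.9 FPKM to 22.4 FPKM in ground control. The highest retina of each group for Fos, M22 in spaceflight and M40 in ground control, was also the highest for Nr4a1. Pearson's r between the genes was 0.93 in spaceflight (exact permutation p = 0.00106, adjusted p = 0.0511, n = 9) and 0.93 in ground control (exact permutation p = 0.00357, adjusted p = 0.0857, n = 7), so neither passed 0.05 after adjustment. Spearman's rho was 0.78 (exact permutation p = 0.0172, adjusted p = 0.177) in spaceflight and 0.86 (exact permutation p = 0.0238, adjusted p = 0.190) in ground control. Without the 2 retinas farthest from the Nr4a1 median, r was 0.80 in spaceflight and 0.61 in ground control.

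Egr1, a zinc finger transcription factor of the same early response, had r of 0.77 and 0.79 with Nr4a1 in spaceflight and ground control (exact permutation p = 0.0502 and 0.0151, adjusted p = 0.301 and 0.177; rho 0.42 and 0.82). These values fell to 0.24 and 0.39 without the 2 retinas farthest from the Nr4a1 median, left out together (M22 and M30 in spaceflight, M32 and M40 in ground control). Leaving out extreme retinas narrows the range of Nr4a1, and these lower values were not tested. Junb, another AP-1 subunit, had r of 0.58 and 0.84 with Nr4a1 (exact permutation p = 0.0966 and 0.0185, adjusted p = 0.515 and 0.177; rho 0.57 and 0.50), and -0.075 and 0.061 without those retinas. Nr4a2 and Nr4a3 had no Pearson's r above 0.50 with Fos, Egr1 or Junb in either group, at adjusted p of 0.610 or more by either coefficient. Egr1 was highest in M40 (109 FPKM), M32 (86.1 FPKM) and M36 (76.4 FPKM) among ground controls and in M22 (75.1 FPKM) in spaceflight. M22 also had the highest lens and epidermis sums of its group; the part of that RNA in its Nr4a1 level was not tested. M40 had the highest amacrine (390 FPKM) and retinal ganglion (655 FPKM) sums of all 16 libraries, and the part of these sums in the levels was likewise not tested. M32 had pericyte and fibroblast sums of 171 FPKM and 122 FPKM, against ground control medians of 54.5 FPKM and 37.5 FPKM. Its lens sum was the median of its group (172 FPKM) and its pigment epithelium sum the lowest (1608 FPKM). The part of neighbouring tissue in the M32 levels was not tested.

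**Figure D3:**
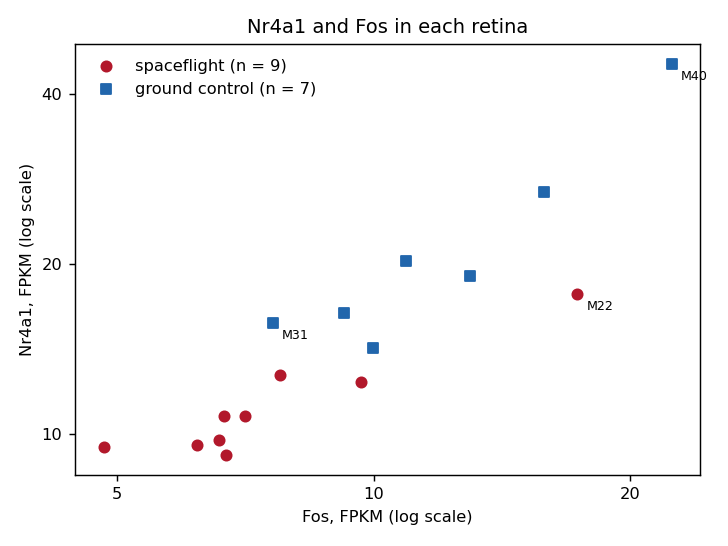
Nr4a1 against Fos, both in FPKM on log axes, in 9 spaceflight (red circles) and 7 ground control (blue squares) retinas. Within each group Nr4a1 was higher where Fos was higher (r = 0.93 in both), with M22 and M40 at the upper end of their groups.

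The genes whose levels were most like each member over all 16 libraries are given as a description, since these correlations include the difference between groups and share the same libraries. For Nr4a1, genes with the highest r of log2(FPKM + 0.1) among 12460 were Ngfrap1 (0.93), Mnt (0.92), Six3 (0.91) and Fos (0.91). With group means removed these 4 had r of 0.84 to 0.89. Mnt encodes a partner of Max that opposes Myc, and Six3 a homeobox factor of eye development. For Nr4a2 the closest were Plk2 (0.90), a kinase that is itself induced by neuronal activity, Wdr82 (0.83), Cdk5r1 (0.82), the activator of Cdk5, Tfap2c (0.80) and Ppp1r3f (0.80). With group means removed they kept r of 0.78 to 0.88. Nr4a3 was closest to Opa3 (0.91), Per1 (0.86), a clock gene that is also an immediate early gene, Stc1 (0.84), Rab35 (0.83) and Ppp1r13b (0.82), and the range with group means removed was 0.69 to 0.82. No gene named here for one member was named for another.

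Left and right retinas were compared in spaceflight only, because the eye labels of the ground control RNA libraries differ between sources. Nr4a1 was 13.1 ± 3.39 FPKM (SD, n = 4) in left and 9.998 ± 0.741 FPKM (SD, n = 5) in right retinas, a log2 difference of 0.35 left minus right that did not pass after adjustment over the 3 genes (two-sided exact permutation p = 0.0397, adjusted p = 0.119, smallest possible p = 0.00794). The left group holds M22, the highest value, and M21, one of the lower ones at 9.54 FPKM. Nr4a2 was 6.16 ± 0.436 FPKM in left and 5.45 ± 0.861 FPKM in right retinas (exact adjusted p = 0.226), and Nr4a3 was 2.78 ± 0.275 FPKM and 2.90 ± 0.910 FPKM (exact adjusted p = 1.0). No difference between eyes was detectable with 4 against 5 retinas.

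The genes around the family were then compared between spaceflight and ground control with limma over the 12460 genes. A gene was called at a fold change of at least 1.2, p of at most 0.05 and a Benjamini-Hochberg adjusted p of at most 0.3, thresholds taken from the study's methods. Over the table, 10 genes (0.0803%) were called higher and 14 (0.112%) lower in spaceflight. At the same fold and an unadjusted p of at most 0.05, 536 (4.3%) were higher and 400 (3.21%) lower. The adjusted calls depend on single libraries: no gene was called in either direction without M21, M25, M26, M27, M30, M32 or M40, while 653 were called higher and 747 lower without M31.

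The RXR partners did not pass the test. Rxra was 11.8 ± 1.86 FPKM in spaceflight and 11.9 ± 1.82 FPKM in ground control (log2 difference -0.017 ± 0.106 (SE), limma adjusted p = 0.960), a difference whose sign changed when single libraries were left out. Rxrb was 7.53 ± 0.285 FPKM and 10.1 ± 4.44 FPKM (-0.32 ± 0.169, limma adjusted p = 0.477), and Rxrg 2.98 ± 0.586 FPKM and 3.79 ± 1.45 FPKM (-0.29 ± 0.161, limma adjusted p = 0.488). Single ground control retinas weighed on both values. For Rxrb the group medians were 7.49 FPKM and 7.61 FPKM, the highest ground control retina was M40 at 18.9 FPKM, and the log2 difference was -0.15 without M40. Without M31, the lowest, Rxrb was called lower (-0.40, limma adjusted p = 0.258). For Rxrg, M31 was highest at 7.03 FPKM, and the log2 difference was -0.14 without it. Of 43 other nuclear receptors, 28 could be tested and 0 were called. At a fold of at least 1.2 and an unadjusted p of at most 0.05, 2 were lower, the orphan receptor Esrra (-0.32 ± 0.142) and the thyroid hormone receptor Thra (-0.29 ± 0.110), and 0 higher. Over all genes tested, 3.21% were lower and 4.3% higher at these thresholds. The third by size was Nr2f6 (-0.26 ± 0.151). Their log2 differences had a median of 0.055, with 13 below 0 and 15 above, against -0.0072 for all genes tested.

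Of the regulators upstream, 14 of 14 genes of the CREB and CRTC list, 13 of 14 of the MEF2 and serum response factor list and 14 of 14 of the ERK cascade were tested, and 0 were called. Over all genes tested, 0.0803% were called higher and 0.112% lower, so 0 calls in lists this short is near that share. Without M31, 3 of 14 (Crtc1, Crtc2, Prkaca), 3 of 13 (Hdac5, Mef2d, Srf) and 1 of 14 (Rps6ka4) were called lower, against 5.94% of all genes. Rps6ka3 was then called higher, as were 653 genes over the table. Srf was also called lower without M22, M33 or M35. With all libraries, the median log2 differences of the lists were -0.082, -0.063 and -0.088. In the CREB list the largest differences were those of Sik1 (-0.55 ± 0.263, limma adjusted p = 0.442), a kinase that restrains CRTC and is itself a CREB target, Prkaca (-0.26 ± 0.0741, limma adjusted p = 0.329), the catalytic subunit of protein kinase A, and Crtc1 (-0.24 ± 0.137, limma adjusted p = 0.499). Srf, serum response factor, was 8.02 ± 0.889 FPKM in spaceflight and 10.1 ± 1.69 FPKM in ground control (-0.32 ± 0.0990, limma unadjusted p = 0.00527, adjusted p = 0.345). Elk3, its ternary complex partner, had 0.24 ± 0.237 and the class IIa deacetylase Hdac9, which binds MEF2, 0.18 ± 0.115. In the ERK cascade Rps6ka4 had -0.46 ± 0.184 and Rps6ka3 0.30 ± 0.131, both kinases downstream of ERK, and Mapk7, which encodes ERK5, had -0.29 ± 0.152. The first of these was lower and the second higher at a fold of at least 1.2 and an unadjusted p of at most 0.05, and neither passed after adjustment (limma adjusted p = 0.384 and 0.424).

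Most of the other immediate early genes had log2 differences below 0, and 1 was called. Of 46 listed, 32 could be tested. Nab2, a corepressor that binds EGR factors and is induced by them, fell from 14.3 ± 2.59 FPKM (SD, n = 7) to 9.29 ± 1.71 FPKM (SD, n = 9), a log2 difference of -0.62 ± 0.129 (SE, limma adjusted p = 0.230). No listed gene was called higher. At the same fold and an unadjusted p of at most 0.05, 7 of 32 were lower, against 3.21% of all genes tested, and 0 higher, against 4.3%. The 7 were Nab2, Fos, Egr1, Jund, Dusp6, Per1 and Ctgf, the last 4 named after their values were seen. Egr1 was 31.8 ± 16.8 FPKM in spaceflight and 60.5 ± 30.9 FPKM in ground control (-0.88 ± 0.296, limma adjusted p = 0.347), Fos 8.09 ± 3.70 FPKM and 12.7 ± 5.03 FPKM (-0.66 ± 0.237, limma adjusted p = 0.369), and Junb 8.04 ± 4.85 FPKM and 11.6 ± 5.94 FPKM (-0.56 ± 0.314, limma adjusted p = 0.490). Of the 32 log2 differences, 27 were below 0, against 6440 of 12460 over all genes tested. The median was -0.24, against -0.0072 over all genes tested. The list was chosen with earlier results of these data known, so its count is not independent evidence of its direction.

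The count of calls in this list moved with single libraries. Without M31, 9 of 32 were called lower (Dusp5, Egr1, Fos, Jun, Jund, Nab2, Npas4, Per1 and Plk2, named after the calls were seen) against 5.94% of all genes. Without M22, 7 were called lower against 1.23% of all genes, and without both, 13 against 5.83%. Without M21, M25, M26, M27, M30, M32, M34, M36 or M40, or with M21 counted as ground control, 0 were called, and Nab2 then had a limma adjusted p of 0.305 to 0.633 with a log2 difference of -0.65 to -0.57. The median of the list stayed between -0.29 and -0.18 in all these fits.

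Genes of the dopamine system, which depends on Nr4a2 in the midbrain, were mostly below the level needed for the test. Of 11 listed, 3 were tested and 0 called. Slc18a2, the vesicular monoamine transporter, was 4.68 ± 0.519 FPKM in spaceflight and 3.99 ± 0.931 FPKM in ground control (0.25 ± 0.129, limma adjusted p = 0.469). Ret, the signalling receptor of the GDNF family, had -0.17 ± 0.138 and Aldh1a1, an aldehyde dehydrogenase that also makes retinoic acid, 0.024 ± 0.403. Tyrosine hydroxylase (Th), the dopamine synthesis enzyme, was named after its values were seen and averaged 1.197 ± 0.323 FPKM in spaceflight and 1.31 ± 0.417 FPKM in ground control, without a test.

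**Figure D4:**
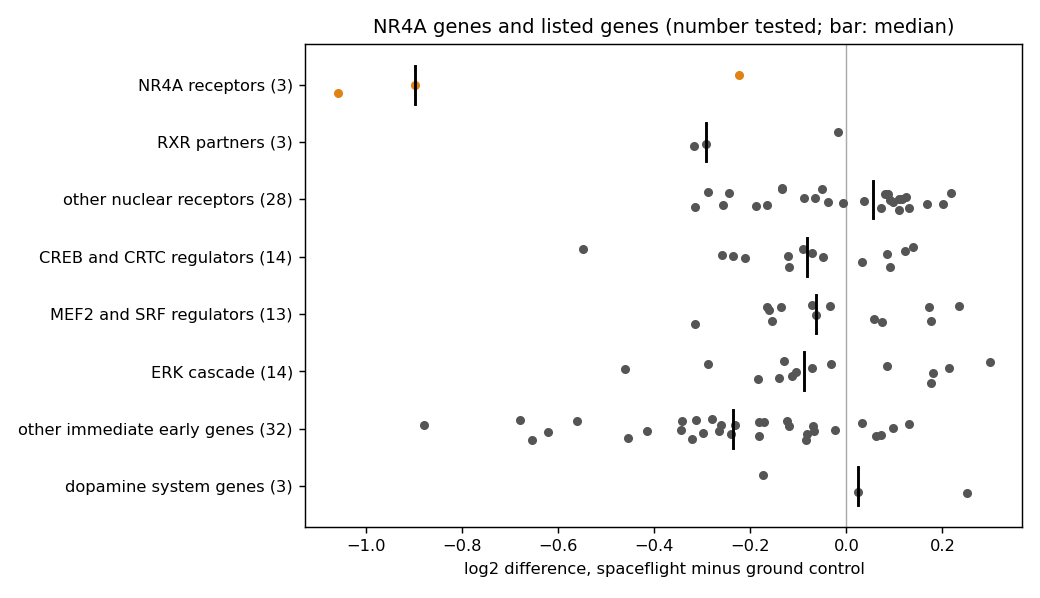
Log2 difference, spaceflight minus ground control (horizontal axis), of each tested gene of the NR4A family (orange) and of the listed groups (grey), with the number tested in brackets and the list median as a black bar. The median is -0.24 for the other immediate early genes and 0.055 for the other nuclear receptors.

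Methylation of the 3 genes was measured independently of their choice. The deposited positions were compared with the genome: all 241359 CpGs on chromosomes 2, 4 and 15 that had at least 5 reads in every library stood at a CG of GRCm38. Counting both strands together, 467 CpGs of the 3 genes had at least 10 reads in all 16 libraries. Of these, 228 were in promoters (1000 bp to either side of a curated RefSeq start). The rest lay elsewhere in the RefSeq span of the gene, called the gene body here. For Nr4a1 this span opens upstream of the curated start, so its gene body includes upstream CpGs.

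The promoters carried little methylation in either group. All 228 promoter CpGs had group means under 5%, the highest being 3.75%. Mean methylation over the 14 promoter CpGs of Nr4a1 (chromosome 15, start 101266846) was 0.717 ± 0.313% in spaceflight and 0.687 ± 0.141% in ground control (SD, n = 8 each). Nr4a2 has starts at 57124003 and 57115038 on chromosome 2; over the former's 70 CpGs the means were 0.284 ± 0.105% and 0.330 ± 0.131%, and over the latter's 69 CpGs 0.470 ± 0.155% and 0.369 ± 0.165%. The 75 promoter CpGs of Nr4a3 (chromosome 4, start 48045305) averaged 0.432 ± 0.0667% and 0.345 ± 0.144%. No promoter passed the comparison of groups in a two-sided exact permutation test (adjusted p = 0.779 to 0.934), and the largest difference was 0.1002 percentage points. Between 648 and 5425 reads per library stood behind each of these means.

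Of the 12 CRE cores shown above, 6 had a CpG with enough reads: the pair at -123 and -111 in Nr4a2 and all 4 of Nr4a3. The cores of Nr4a2 were at 0.0% in every library, at medians of 20 and 29 reads per library. Those of Nr4a3 were at 0.278 to 0.977% in spaceflight and 0.0 to 0.794% in ground control, at medians of 34.5 to 45.5 reads per library. The 4 cores of Nr4a1 were not covered by enough reads.

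Outside the promoters the genes differed from each other in their methylation. Nr4a1 (chromosome 15, 101253902 to 101274795) was under 10% near the start and highly methylated further on: all 34 CpGs from 3166 to 6178 bp after the start, 31 of them in exons, were at 69.9 to 99.0%, with averages of 93.5% in spaceflight and 93.8% in ground control. Of its CpGs upstream, 11 at distances of -11149 to -2920 bp from the start were above 50%. A further 53 CpGs at -12781 to -12423 bp, beside the start of a predicted Nr4a1 transcript at 101254213, were at 0.0 to 1.10%. Nr4a2 (chromosome 2, 57106830 to 57124003) had no CpG above 50%; its 75 gene body CpGs reached 47.0%, and 19 of them, all 2475 to 5848 bp after the downstream start, exceeded 10% in at least 1 group. In Nr4a3 (chromosome 4, 48045078 to 48086447), 5 intronic CpGs from 8125 to 8580 bp after the start were at 92.3 to 99.2%, while 16 others from 2834 to 32962 bp were partly methylated.

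No difference in gene body means was detected. They were 40.6 ± 0.291% in spaceflight and 40.7 ± 0.368% in ground control over 102 CpGs of Nr4a1, 8.33 ± 1.07% and 8.28 ± 1.35% over 75 CpGs of Nr4a2, and 14.6 ± 0.976% and 15.05 ± 0.619% over 62 CpGs of Nr4a3 (SD, n = 8 each; exact permutation adjusted p = 0.779 to 0.934). The Nr4a1 mean takes in CpGs upstream of the curated start. Its 53 CpGs at -12781 to -12423 bp averaged 0.248% in spaceflight and 0.326% in ground control. Its 34 CpGs from 3166 bp after the start averaged 93.5% and 93.8%. With reads pooled over the CpGs of a region, the differences were -3.69 points for Nr4a1 and -2.02 points for Nr4a3 (exact permutation adjusted p = 0.158 for both). Pooling gives deeply read CpGs more weight. The Nr4a1 value thus also depends on how reads spread over its low and high CpGs, and the source of this difference was not tested.

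**Figure D5:**
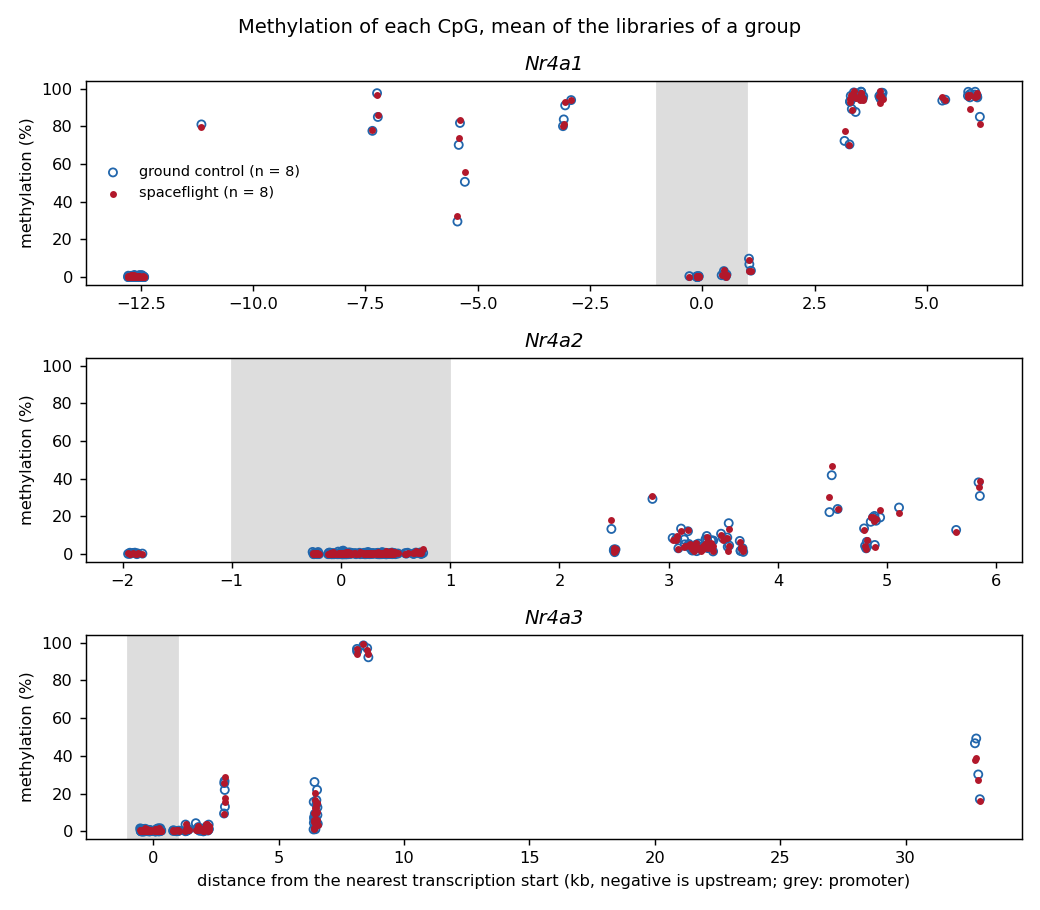
Methylation in percent (vertical axes) of each CpG of Nr4a1, Nr4a2 and Nr4a3 against its distance in kb from the nearest transcription start, as the mean of 8 spaceflight (red points) and 8 ground control (blue circles) libraries, with promoters in grey. CpGs in the grey bands lie under 5%, those of Nr4a1 more than 3 kb downstream of the start lie at 69.9 to 99.0%, and points and circles of a CpG lie close together.

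Single CpGs were fitted over all 1071573 CpGs that had at least 10 reads in every library. Calls needed an adjusted p of 0.05 or less beside a gap of 10 points or more between the pooled percentages, and 0 (0.0%) were called over the table, at a lowest adjusted p of 0.865. At an unadjusted p of at most 0.05, 43869 CpGs (4.09%) passed over the table and 29 of the 467 CpGs of the NR4A genes (6.21%). None of the 467 differed by 10 points. The largest difference among those 29 was 8.05 points, at a Nr4a2 intron CpG (chromosome 2, 57110567), with 30.4 ± 8.67% in spaceflight and 22.3 ± 5.91% in ground control. The smallest unadjusted p belonged to an exonic CpG of Nr4a3 (chromosome 4, 48051756), with 16.4 ± 2.67% and 8.42 ± 3.19% (difference in pooled reads 7.01 points, unadjusted p = 0.00424 by the logistic fit across all CpGs, adjusted p = 0.865). Of its neighbours that also passed at the unadjusted level, the CpG at 48051762 had a difference of 6.67 points and that at 48051840 one of -6.91 points. In Nr4a1, 5 exonic CpGs in the methylated part passed at the unadjusted level, 2 of them higher and 3 lower in spaceflight. All 14 promoter CpGs among the 29 differed by 2.25 points or less.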

How the data were processed

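RNA-seq and RRBS libraries of mouse retina were analysed from the deposited tables. For expression, the authors trimmed paired reads, aligned them to GRCm38 with TopHat2 and deposited FPKM per gene from Cufflinks; read counts are not used, so the depth behind each FPKM is unknown. RRBS reads were trimmed by the authors (Trim Galore 0.4.5, per the submitters' processing notes), cleared of duplicates by random tags and aligned with Bismark, and the authors deposited a count of reads and a percent methylated for each CpG cytosine. Reads on CpG cytosines numbered 59572205 to 105298542 per library. RNA libraries were sequenced on more than 1 instrument model; which library ran on which is not given in the sources used here.

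Groups followed the labels. The mouse numbers of the ground control RNA libraries differ between sample titles and the study's table of libraries; columns were matched by library identifier, and 2 further sample columns were left out. Members, lists and tests were chosen with earlier results of these data known. Differences of log2(FPKM + 0.1) were fitted with limma 3.58.1 (mean-variance trend, R 4.3.3) over 12460 genes that reached 1 FPKM in each of the 16 libraries; members are described with means, SD and SE only. Named genes were the members, the called genes of each pathway list or else its 3 largest differences, the 5 genes most correlated with each member, Fos, Egr1 and Junb, and CpGs of the members with unadjusted p of at most 0.05, of which the text gives some; 1 of the correlated genes is not reported here. Strands of a CpG were added; those covered by 10 or more reads in each library entered a binomial model with group as its term, whose F statistic was divided by the overdispersion, held at 1 or above. Intervals are not given, and all errors are between libraries. Regions were tested on library means with exact permutation. Scripts (Python 3.11.15, scipy 1.17.1) were tested on simulated data. Alternatives were another pseudocount (1), size factors, a filter on mean FPKM, each library left out, M21 as ground control or left out, CpG minimums of 5 and 20 reads, and pooled reads. Promoter sequences came from RefSeq (GRCm38.p6).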

Additional observations from a re-analysis of the deposited data

Results flagged for a closer look

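Of 90 sets of 7 to 9 values examined for a library far from the others, 12 held one by Dixon's criterion at the 95% level. For independent, normally distributed sets chance gives about 1 in 20. These sets share libraries and include genes picked for their correlation with a member, so the count does not measure an excess. Among the members, Nr4a1 stood apart in M22 of spaceflight (17.7 FPKM, the next being 12.7 FPKM) and in M40 of ground control (45.3 FPKM, the next being 26.8 FPKM). M22 also stood apart for Fos (17.3 FPKM), Egr1 (75.1 FPKM), Ngfrap1 (161 FPKM), Rxrg (4.48 FPKM) and Aldh1a1 (72.7 FPKM) in spaceflight. M31 was the highest ground control library for Rxrg (7.03 FPKM) and Aldh1a1 (89.2 FPKM) and the lowest for Ppp1r3f (2.45 FPKM). M21 was the highest spaceflight library for Elk3 (4.94 FPKM). In RRBS, the Nr4a1 promoter mean was highest in M25 of spaceflight (1.40%, the next being 0.884%).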

How the results depend on the processing

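The members kept negative log2 differences under every alternative run. Counts of called genes did not hold. With a pseudocount of 1, 5 genes were called higher and 8 lower, and with M21 as ground control 0 and 0. Without M22 and M31, an alternative chosen after seeing the data, 693 were called higher and 734 (5.83% of all genes) lower. Of the listed genes, 1 was then higher and 22 lower, 13 of these among the 32 other immediate early genes tested. With M21 as ground control, 0 listed genes were called. Without single libraries the counts ran from 0 to 653 higher and 0 to 747 lower over all genes, and from 0 to 1 higher and 0 to 21 lower over the listed genes. The 21 came without M31. Of them, 9 were among the 32 other immediate early genes tested, and 5.94% of all genes were then lower. Signs changed for Nr4a3 with Junb in spaceflight without M21 (r = 0.020), Nr4a3 left minus right with size factors (0.014) and without M21 (0.064), Elk3 with M21 as ground control (-0.082), Rxra (-0.065 to 0.041 without single libraries) and Aldh1a1 (-0.20 to 0.38). With at least 5 reads per CpG the sign changed for the Nr4a1 gene body (0.174 points), the Nr4a1 promoter (-0.0538 points) and the Nr4a2 gene body (-0.138 points), none past the test. The cause was not tested. The counts of pairs, eyes, regions and CpGs past their thresholds were the same under every alternative run for them. No paired analysis was possible because the spaceflight and ground control groups share no mouse number; the same numbers occur only between RNA and RRBS libraries of 1 group. Depth limits methylation differences of single CpGs at 10 to 20 reads, and the read depth behind FPKM is unknown.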
